A study of Homo sapiens with 6 samples.

Results

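The genes described here were 10 neuroendocrine and secretory granule genes, CHGA, CHGB, SCG2, SCG5, VGF, SYP, ENO2, CALCA, CALCB and APLP1. They were taken by symbol from a table of 29804 gene symbols, and they were chosen with their levels in these libraries known. RNA sequencing had been performed on 22Rv1, a human prostate carcinoma epithelial cell line. Parental cells at week 0 (WT) and age matched cells kept in culture for 6 weeks (AM) had received no phleomycin. The remaining cells had been treated over 6 weeks, once a day on week days, with phleomycin at 1 µg/ml for 1 hour, then washed (6WP). Phleomycin is a radiomimetic, a drug that breaks DNA as radiation does. Each group had 2 libraries labelled as biological replicates, all 6 libraries carried the genotype label WT, and all cells had grown in RPMI medium with serum. A single cell line and a single dose were studied. Total counts ranged from 21222201 to 35311945 per library.

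Neuroendocrine cells store peptide hormones in dense core granules and release them when calcium rises. The granins (CHGA, CHGB, SCG2) and VGF are acidic cargo proteins that help granules form and are cut into smaller peptides, and SCG5 (7B2) is the chaperone of the prohormone convertase PCSK2. In the prostate these proteins mark rare neuroendocrine cells of the normal gland and also tumours that have taken on neuroendocrine features. SYP (synaptophysin) and ENO2 (neuron-specific enolase) are diagnostic markers of such tumours, CALCA and CALCB encode calcitonin and the calcitonin gene-related peptides, and APLP1 is a membrane protein related to the amyloid precursor protein.

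RefSeq promoters on GRCh38.p14, from 250 bases before to 50 bases after the start of transcription, were matched for 7 of the 10 genes, and CHGB, SCG2 and CALCB were not among them. The promoters of CHGA, VGF and CALCA are shown because these genes had large differences between 6WP and WT cells and because their windows held the motifs searched on both strands. Capitals mark the cAMP response element TGACGTCA in CHGA and VGF, and in CALCA they mark TTCCATCA, the opposite strand of TGATGNAA, the core of the amino acid response element bound by ATF4.
CHGA promoter, chr14:92922900-92923199, plus strand: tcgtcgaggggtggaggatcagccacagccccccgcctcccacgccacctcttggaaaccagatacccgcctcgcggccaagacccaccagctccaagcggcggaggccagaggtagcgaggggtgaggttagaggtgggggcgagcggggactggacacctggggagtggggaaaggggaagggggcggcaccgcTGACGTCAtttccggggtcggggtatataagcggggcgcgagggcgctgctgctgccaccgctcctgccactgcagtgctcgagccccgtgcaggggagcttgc
VGF promoter, chr7:101165520-101165819, minus strand: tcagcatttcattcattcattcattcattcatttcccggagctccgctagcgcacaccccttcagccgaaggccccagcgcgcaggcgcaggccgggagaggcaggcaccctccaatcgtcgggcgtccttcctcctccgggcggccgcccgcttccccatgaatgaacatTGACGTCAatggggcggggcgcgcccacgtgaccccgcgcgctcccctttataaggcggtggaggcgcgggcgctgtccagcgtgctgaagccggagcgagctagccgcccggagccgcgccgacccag
CALCA promoter, chr11:14972302-14972601, minus strand: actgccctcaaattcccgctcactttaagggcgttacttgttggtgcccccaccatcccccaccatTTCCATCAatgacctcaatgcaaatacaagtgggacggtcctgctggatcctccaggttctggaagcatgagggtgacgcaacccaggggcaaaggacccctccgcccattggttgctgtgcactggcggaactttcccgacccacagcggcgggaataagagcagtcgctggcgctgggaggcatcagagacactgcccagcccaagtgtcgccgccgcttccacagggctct
The full cAMP response element began 54 bases before the start in CHGA and 79 bases before it in VGF, and it was held by 1.85% of all 35116 promoters of the same length. The shorter element TGACG, which the full element contains, was also found in SCG5 and, 110 bases before the start, in CALCA, and 24.6% of all promoters held it. TGATGNAA was held by 3.62% of all promoters. Of the 7 promoters matched, those of SYP, ENO2 and APLP1 held none of these letters. These matches describe the sequence only.

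Before the genes are described, the libraries need 1 caution. The 6WP replicates stood further apart than the others, with a median difference between replicates of 0.28 on the log2 scale over 14672 tested genes, against 0.12 in WT and 0.13 in AM. Levels are given below as CPM, the library's count of a gene scaled to a common library size by the trimmed mean of M values, each 6WP library on its own, and fold changes come from edgeR's quasi-likelihood fit of all 6 libraries. Luminal prostate markers were abundant in every group. The 13 luminal markers summed to 4223 to 4473 CPM in WT, 2904 to 3266 CPM in AM and 3542 to 5062 CPM in 6WP, with none at 0, and the 6 basal markers summed to at most 24.7 CPM with KRT5, a defining basal keratin, at 0 in every library. The 7 fibroblast markers and the 7 leukocyte and endothelial markers summed to at most 4.23 and 3.96 CPM per library, and 3 of the latter (PTPRC, CD3E and CDH5) were at 0 throughout. In bulk RNA, more cells that express a gene and more of its RNA per cell cannot be told apart.

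The level per kb of exon differed widely among the 10 genes. In WT cells ENO2 was highest at 45.6 CPM per kb, followed by VGF (32.8), APLP1 (12.3), SYP (5.22), CHGB (1.66), CALCB (1.18), CHGA (0.602), CALCA (0.270), SCG2 (0.175) and SCG5 (0.0206). The replicate ranges of neighbours in this order did not overlap in WT. In 6WP cells VGF was first at 76.8 CPM per kb and ENO2 next at 45.4, and the order of CHGB (4.78), CHGA (3.77), CALCB (3.34) and CALCA (3.16) could not be told, since their replicate ranges overlapped. ENO2, VGF, APLP1 and SYP were thus the abundant transcripts of the set in WT cells, and the granins and calcitonin peptide genes the scarce ones.

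CHGA, which encodes chromogranin A, the standard serum and tissue marker of neuroendocrine tumours, lies on the plus strand of chromosome 14 (GRCh38, chr14:92923150-92935285). It had 1.43 and 2.21 CPM in the WT libraries, 4.48 and 3.80 CPM in AM, and 5.32 and 17.5 CPM in 6WP replicates 1 and 2. The 3 groups did not overlap, but 6WP replicate 1 stood close to AM and replicate 2 stood far above it. The fold change was 2.65 ± 0.54 (SE) on the log2 scale for 6WP against WT (6.29-fold), 1.47 ± 0.49 for 6WP against AM and 1.18 ± 0.56 for AM against WT. Without 6WP replicate 2 the first 2 values were 1.52 and 0.34, and without replicate 1 they were 3.26 and 2.09.

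CHGB, which encodes chromogranin B (chr20:5911510-5925353, plus strand), had the same order of libraries. It was measured at 7.14 and 7.63 CPM in WT, 9.64 and 8.69 CPM in AM, and 12.7 and 29.8 CPM in 6WP. Both 6WP libraries exceeded all 4 controls, and replicate 2 was 2.35 times replicate 1. The log2 fold change was 1.53 ± 0.35 against WT and 1.22 ± 0.34 against AM, and AM differed from WT by 0.31 ± 0.36. Leaving out 6WP replicate 2 took the 6WP differences to 0.76 and 0.44.

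SCG2, secretogranin II, the precursor of secretoneurin (chr2:223596940-223602361, minus strand), was scarce, with 12 and 8 counts in WT, 22 and 19 in AM and 38 and 26 in 6WP, or 0.368 to 1.37 CPM. The 6WP libraries were both above WT, but 6WP replicate 2 (0.916 CPM) did not exceed AM replicate 1 (0.947 CPM). The log2 fold change was 1.33 ± 0.45 against WT and 0.64 ± 0.40 against AM, the latter 1.03 without AM replicate 1 and 0.27 without AM replicate 2.

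SCG5 (chr15:32641676-32697098, plus strand) had 1 and 1 counts in WT, 0 and 3 in AM, and 7 and 2 in 6WP, and did not pass the filter on low counts. The 0 in AM replicate 1 allows a level of up to 0.129 CPM, counting error only. No difference could be read at this depth. SCG5 also shares 1129 exonic bases with the readthrough gene ARHGAP11A-SCG5 on the same strand.

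VGF, a nerve growth factor inducible gene whose product is cut into neuropeptides (chr7:101162509-101165569, minus strand), showed the closest 6WP replicates of the granule cargo genes. The WT libraries had 72.7 and 103 CPM, the AM libraries 126 and 121 CPM, and the 6WP libraries 219.8 and 192 CPM. The groups did not overlap in any pair, and 6WP replicates differed by 1.14 times, less than the 1.41 times between the WT replicates. VGF was 1.23 ± 0.17 higher on the log2 scale in 6WP than in WT (2.35-fold), 0.74 ± 0.17 higher than in AM, and 0.49 ± 0.17 higher in AM than in WT. The last value was 0.27 without WT replicate 1 and 0.78 without WT replicate 2.

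**Figure D1:**
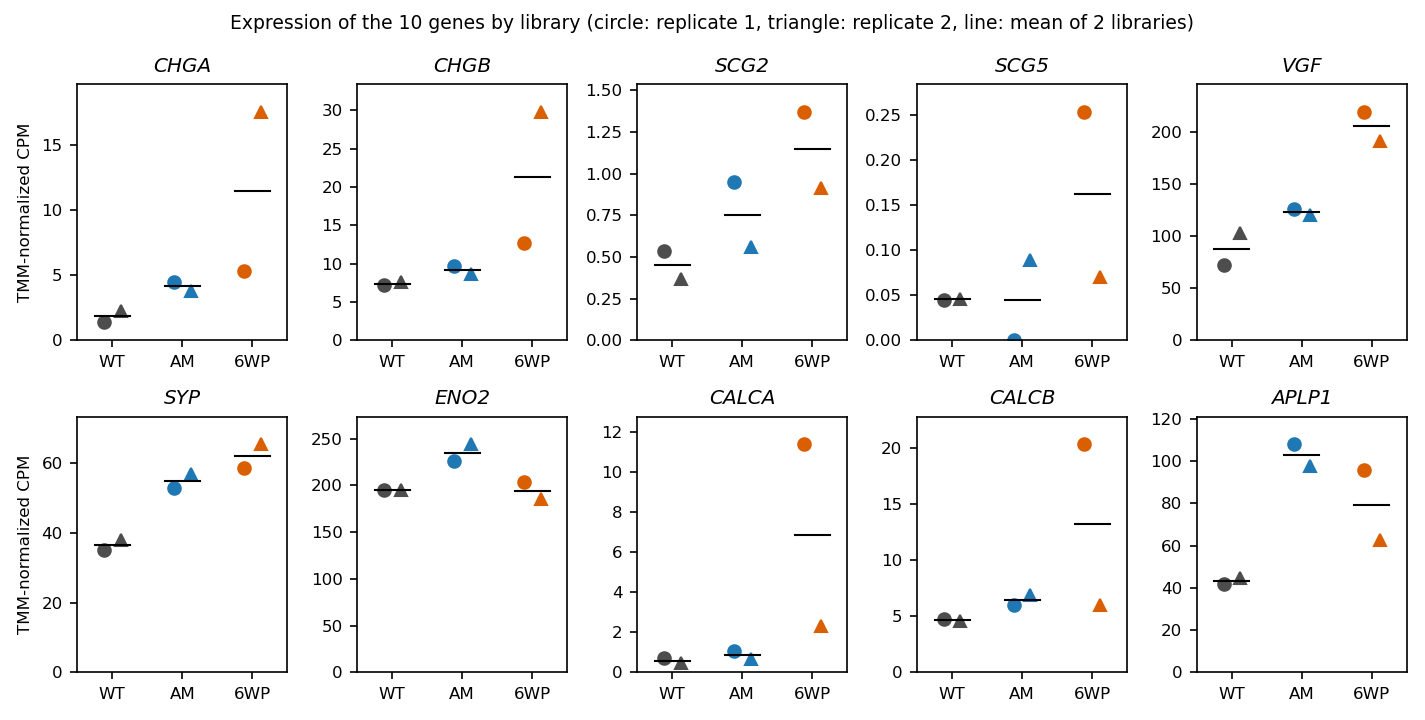
Level of each of the 10 genes in every library. The vertical axes give CPM, each from 0 and on its own scale, circles and triangles mark replicates 1 and 2, and lines mark the mean of the 2 libraries of a group. CHGA and CHGB stood highest in 6WP replicate 2, CALCA and CALCB in 6WP replicate 1, and VGF was at 219.8 and 192 CPM in the 6WP pair.

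CALCA, which encodes calcitonin and, by alternative splicing, the calcitonin gene-related peptide alpha (chr11:14966622-14972354, minus strand), was the member with the largest 6WP difference and the widest replicate gap. It was near the lower end of detection in controls, at 0.714 and 0.459 CPM in WT and 1.08 and 0.648 CPM in AM. In 6WP it reached 11.4 CPM in replicate 1 (316 counts) and 2.33 CPM in replicate 2 (66 counts). Each 6WP library was above all 4 controls, although replicate 1 was 4.91 times replicate 2. The log2 fold change was 3.54 ± 0.77 against WT (11.6-fold) and 3.02 ± 0.71 against AM (8.14-fold), while AM and WT overlapped. Without 6WP replicate 1 the differences were 1.96 and 1.47.

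CALCB, its paralog, which encodes the calcitonin gene-related peptide beta (chr11:14904997-15082342, plus strand), had a similar replicate gap at a higher starting level. It had 4.78 and 4.55 CPM in WT, 6.03 and 6.89 CPM in AM, and 20.3 and 5.99 CPM in 6WP. In this case 6WP replicate 2 did not exceed the AM libraries, and it was nearly equal to AM replicate 1. The log2 fold change of 1.49 ± 0.48 against WT became 0.35 without 6WP replicate 1, and 1.02 ± 0.47 against AM became -0.12. Because the 2 paralogs are alike in sequence, reads may have been split between them. The single symbol count of CALCA does not tell calcitonin from the calcitonin gene-related peptide alpha. CALCB also shares 115 exonic bases with CALCP on the same strand.

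SYP, an integral membrane protein of small synaptic-like vesicles (chrX:49187815-49200218, minus strand), had tight replicates. It was measured at 35.0 and 37.9 CPM in WT, 52.8 and 56.8 CPM in AM and 58.5 and 65.3 CPM in 6WP. Most of its difference was already present between the 2 untreated groups. On the log2 scale, AM was 0.59 ± 0.12 above WT, 6WP was 0.77 ± 0.12 above WT, and 6WP was 0.18 ± 0.12 above AM, or 0.06 without 6WP replicate 2. SYP shares 68 exonic bases with SYP-AS1 on the opposite strand, and the strand setting of the counting was not given in the sources used here.

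ENO2, the glycolytic enolase of neurons and neuroendocrine cells (chr12:6913745-6923698, plus strand), was the member that did not separate 6WP from WT. It had 195 and 195 CPM in WT, 226 and 244 CPM in AM, and 204 and 185 CPM in 6WP. The 6WP libraries lay on either side of WT, with a log2 fold change of 0.00 ± 0.11, and below both AM libraries, with -0.27 ± 0.11.

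APLP1 (chr19:35867899-35879792, plus strand) was highest in AM. It had 41.9 and 44.9 CPM in WT, 108 and 97.7 CPM in AM, and 95.6 and 62.5 CPM in 6WP. Both 6WP libraries lay between the 2 control groups. The log2 fold change was 1.24 ± 0.19 for AM against WT (2.36-fold), 0.86 ± 0.19 for 6WP against WT and -0.38 ± 0.19 for 6WP against AM. The 6WP differences were 0.51 and -0.72 without 6WP replicate 1, and 1.11 and -0.13 without replicate 2. APLP1 shares 232 exonic bases with NPHS1 on the opposite strand, with the same limit.

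**Figure D2:**
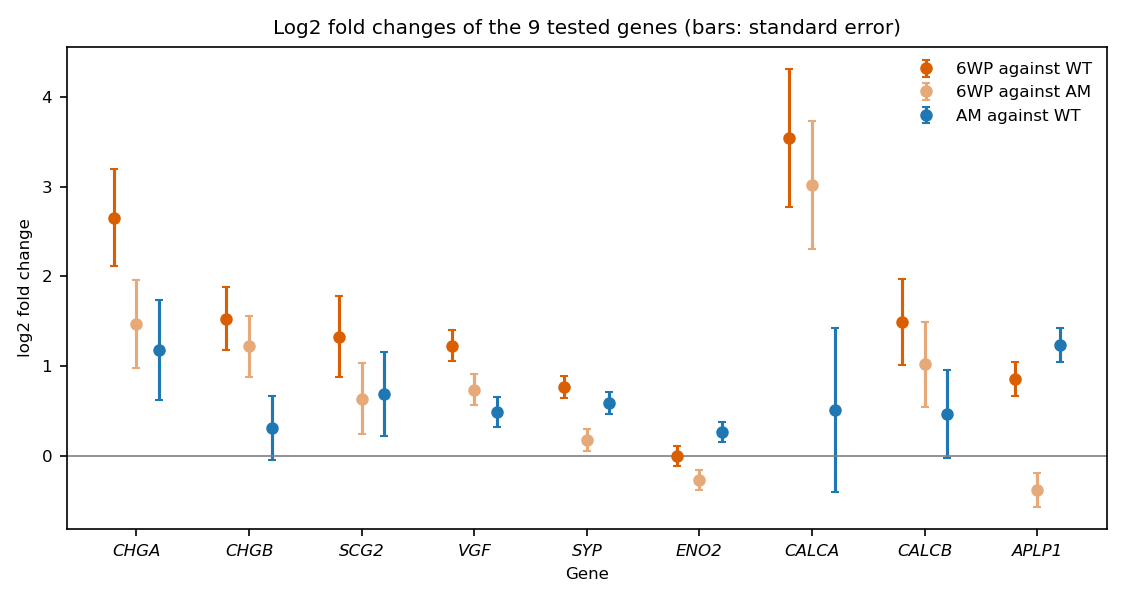
Log2 fold changes (vertical axis) of the 9 genes that passed the filter on low counts in the 3 comparisons, with bars giving the standard error from the fit of all 6 libraries. CALCA and CHGA had the largest values against WT (3.54 and 2.65), ENO2 was at 0.00, and APLP1 was above 0 against WT and at -0.38 against AM.

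Of the 10 genes, 9 passed the filter, 8 of them through all 6 libraries. An adjusted p under 0.05 was reached by 3 of the 9 in 6WP against WT (CHGA, VGF and SYP), where 3.00% of all tested genes reached it. The count was 3 in 6WP against AM (CHGB, VGF and CALCA), against 21.3% of all tested genes, and 2 in AM against WT (SYP and APLP1), against 17.7%. All of these were higher in the first group named, as were 1.63%, 11.7% and 7.74% of all tested genes. The 6WP libraries were both above the WT pair for 8 of the 9 genes, with 25.5% of all tested genes in that state, and above the AM pair for 5, with 33.8%. They were both below the AM pair for ENO2 and APLP1, with 28.5% of all tested genes in that state. AM was above WT for 8, with 36.9%. These counts describe genes chosen on these same libraries and are no test of the group. The comparisons share libraries, so a low WT value enters both differences from WT. The median log2 fold change of the 9 was 1.33 against WT, 0.74 for 6WP against AM and 0.51 for AM against WT, beside medians of 0.01, 0.05 and 0.00 over all tested genes. Leaving out 1 library left its group with a single library, assumed to vary like the other groups, and the spread then came from the 2 pairs that were left. Over all tested genes, the 440 called in 6WP against WT became 3752 and 3870 without 6WP replicate 1 and 2, 0 without either WT library (edgeR, 1456 and 1900 with an unadjusted p under 0.05), and 100 and 102 without AM replicate 1 and 2. The 3131 called in 6WP against AM became 6807 and 4983 without 6WP replicate 1 and 2, 179 and 116 without AM replicate 1 and 2, and 1291 and 1329 without WT replicate 1 and 2. The 2593 called in AM against WT became 6535 and 6654 without 6WP replicate 1 and 2 and 67 to 137 without any 1 WT or AM library. The calls of the 10 genes moved with these totals. None was left in 6WP against WT or in AM against WT without any 1 WT or AM library, and in 6WP against AM none was left without either AM library and 1 without either WT library. The losses given below for other lists stand beside the same totals and say nothing particular to a list.

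The 2 libraries of 6WP differed in opposite ways for different granule genes. CHGA, CHGB and SYP were higher in 6WP replicate 2, by 1.71, 1.23 and 0.16 on the log2 scale, and the other 6 tested genes were higher in replicate 1, where replicate 2 minus replicate 1 was -2.26 for CALCA, -1.75 for CALCB, -0.61 for APLP1, -0.55 for SCG2, -0.19 for VGF and -0.15 for ENO2. A gap between the 6WP replicates as wide as that of CALCA was found in 0.164% of all tested genes, as wide as that of CALCB in 0.647%, of CHGA in 0.722% and of CHGB in 3.22%. For VGF, SYP and ENO2 it was common, being matched by 64.0% to 72.5% of genes. The genes were chosen with these values known, so the shares describe the gaps and test nothing. Luminal prostate markers also differed between these 2 libraries, with sums of 3542 CPM in one and 5062 CPM in the other. TMPRSS2 had 42.0 CPM in replicate 1 and 116 CPM in replicate 2, and STEAP2 had 184 and 364 CPM. These 2 gaps were wider in proportion than that of the sum, and the other luminal markers of the sum are not described here. The part of the luminal marker difference in the granule gene values was not tested.

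**Figure D3:**
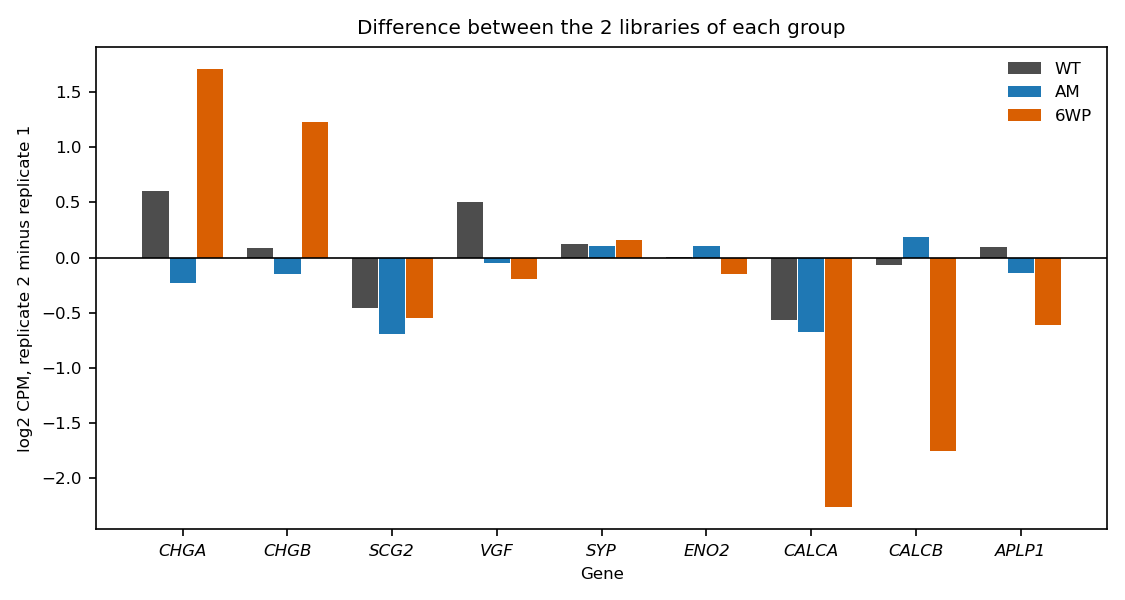
Difference between the 2 libraries of each group, as log2 CPM of replicate 2 minus replicate 1, for the 9 tested genes. In 6WP the bars of CHGA (1.71) and CHGB (1.23) point up and those of CALCA (-2.26) and CALCB (-1.75) point down, and the WT and AM bars are short for CHGB and CALCB.

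Among the 12036 tested genes with a mean of at least 1 log2 CPM, the 5 whose profile over the 6 libraries lay nearest to that of CHGA were LHFPL4, FAM218A, UNC79, CHGB and STC2, with root mean square differences of centred log2 CPM of 0.29, 0.44, 0.48, 0.49 and 0.50. The measure rests on 6 points that share libraries and groups. Of the other 8 members tested, 6 reached that mean and were ranked, CALCA and SCG2 did not, and CHGB was the only one of the 6 among the 5 nearest. LHFPL4, a tetraspan protein of inhibitory synapses, had 72 and 72 counts in WT, 177 and 190 in AM, and 238 and 557 in 6WP. STC2, a secreted glycoprotein hormone, had 429 and 449 counts in WT, 613 and 991 in AM, and 1614 and 2316 in 6WP.

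The rest of the neuroendocrine programme was described through 7 further lists holding 137 genes, of which 80 passed the filter. These lists were chosen with earlier results of these data known. Their shares, here and below, stand beside those of all tested genes as a description and are no test of a list. In 6WP against WT, 14 of the 80 passed the edgeR test (10 higher and 4 lower), or 17.5% beside 3.00% of all tested genes. In 6WP against AM it was 26 (19 higher and 7 lower), or 32.5% beside 21.3%, and in AM against WT 30 (15 and 15), or 37.5% beside 17.7%. The median log2 fold changes were 0.10, 0.29 and -0.26. Without 6WP replicate 1 or 2 the number called in 6WP against WT was 40 and 34, where 3752 and 3870 of all tested genes were called, and without either WT library it was 0, as it was for all tested genes. Of the 14 calls, 5 were left without either AM library. In 6WP against AM, 4 and 2 of the 26 calls were left without AM replicate 1 and 2, and 15 and 14 without WT replicate 1 and 2. In AM against WT, 2 or 3 of the 30 were left without any 1 WT or AM library, and 54 genes were called without either 6WP library. Of the 137 genes, 43 had at most 3 counts in every library and 19 had none.

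**Figure D4:**
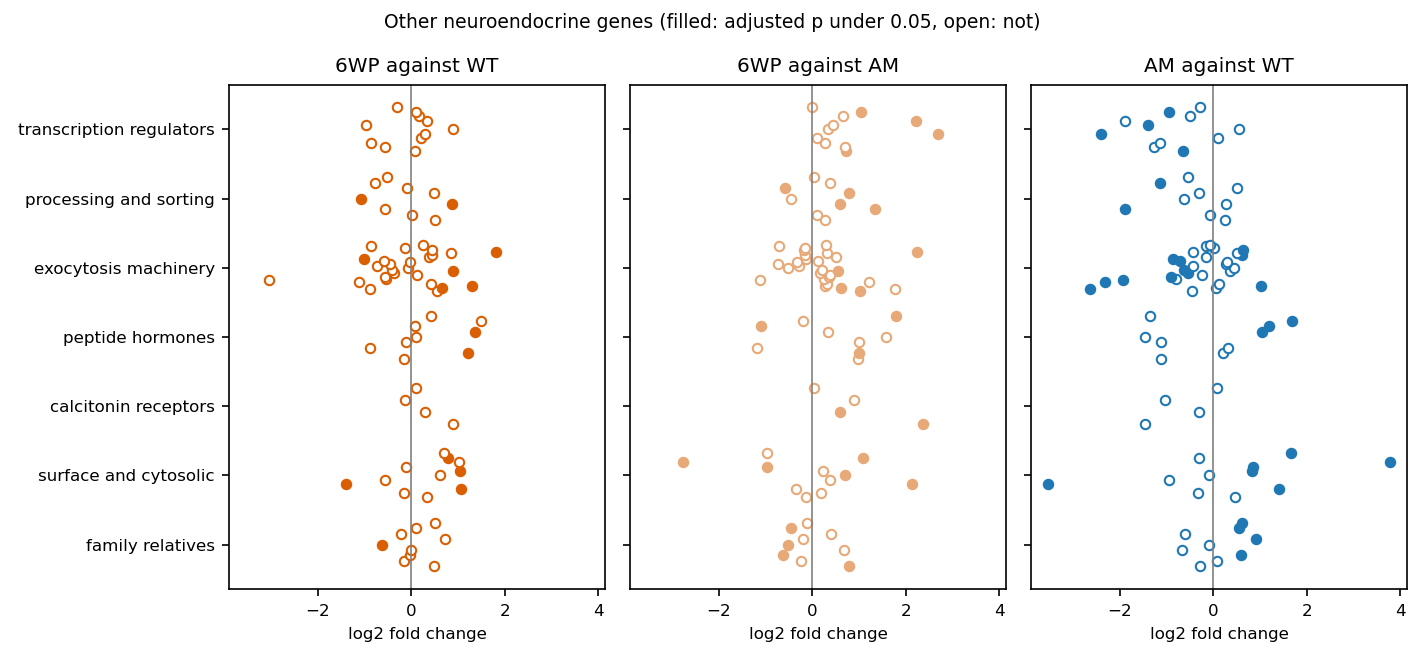
Log2 fold changes (horizontal axes) of the 80 tested genes of the 7 further lists in the 3 comparisons. Filled points had an adjusted p under 0.05 and open points did not, and the filled points number 14, 26 and 30 from left to right.

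Among 21 transcription and splicing regulators of neuroendocrine identity, none of the 11 tested passed in 6WP against WT, where 3.00% of all tested genes did. With edgeR 3 had an unadjusted p under 0.05, and DESeq2 and limma-voom also called none while edgeR's likelihood ratio test called 1. NEUROD1, a proneural factor, had at most 1 count and INSM1, a zinc finger repressor of neuroendocrine cells, at most 4 in any library. SRRM4, a splicing factor of neuronal microexons that is switched on in neuroendocrine prostate cancer, had 71.2 and 75.3 CPM in WT, 41.8 and 34.7 CPM in AM and 65.4 and 91.5 CPM in 6WP. It fell in AM against WT by 0.94 ± 0.17 on the log2 scale (edgeR adjusted p = 0.0126) and was 1.04 ± 0.17 higher in 6WP than in AM (edgeR adjusted p = 0.00819). POU3F2 (BRN2), a neural POU factor, likewise had 10.2 and 11.7 CPM in AM, below the 16.1 and 18.1 CPM of WT and the 16.7 and 19.7 CPM of 6WP. Its log2 fold change was -0.64 ± 0.16 for AM against WT (edgeR adjusted p = 0.0307) and 0.73 ± 0.16 for 6WP against AM (edgeR adjusted p = 0.0178). NKX2-1 had the same order at under 1.3 CPM, and shares exonic bases with SFTA3. ISL1, an islet and neural factor, was lower in AM than in WT (-1.40 ± 0.32, edgeR adjusted p = 0.0245), and MYT1 was higher in 6WP than in AM (2.21 ± 0.65, edgeR adjusted p = 0.0452). The MYT1 value rested on 6WP replicate 2, with 0.542 and 1.90 CPM in the 6WP libraries. It was 1.01 without that library, and the call was lost there, with limma-voom and when only the 2 groups were fitted. All 4 calls in AM against WT were downward and all 4 in 6WP against AM upward, and both comparisons use the same AM libraries. In each comparison the calls were 36.4% of the 11 tested, beside 17.7% and 21.3% of all tested genes. Luminal prostate markers moved the same way. Of the 13, 6 were lower and 1 higher in AM than in WT, and 5 were higher and 1 lower in 6WP than in AM. Those called were 53.8% and 46.2% of the 13, beside 17.7% and 21.3% of all tested genes. The part of luminal markers in the regulator values was not tested. REST, the repressor of neuronal genes, had 64.7 and 64.5 CPM in WT and 45.0 and 60.3 CPM in 6WP, and its log2 fold change of -0.30 ± 0.15 did not pass (edgeR adjusted p = 0.290), nor did ONECUT2 at 0.21 ± 0.15 (edgeR adjusted p = 0.454). Of the 4 calls in 6WP against AM, 2 remained without either WT library, 0 without either AM library and 3 without 6WP replicate 2, and of the 4 in AM against WT none remained without any 1 WT or AM library.

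Of 14 genes that process prohormones or sort cargo into granules, 9 were tested and 2 passed in 6WP against WT. The share that passed was 22.2% in 6WP against WT, 44.4% in 6WP against AM and 22.2% in AM against WT. Over all tested genes it was 3.00%, 21.3% and 17.7%. SCG3, a granin that anchors cargo to the granule membrane, rose from 31.2 and 31.9 CPM in WT to 52.8 and 63.2 CPM in 6WP (0.88 ± 0.13, edgeR adjusted p = 0.0158), and also passed against AM (0.60 ± 0.12, edgeR adjusted p = 0.0154). CADPS2, a priming factor for granule release, fell from 29.1 and 24.0 CPM to 15.1 and 10.3 CPM (-1.07 ± 0.20, edgeR adjusted p = 0.0378). The carboxypeptidase CPE, abundant at 116 to 133 CPM, did not pass in any comparison, and the convertases PCSK1 (at most 12 counts) and PCSK2 (at most 1 count) were not tested. PAM, which amidates peptides including the calcitonin family, had 16.1 and 19.0 CPM in WT, 5.17 and 4.30 CPM in AM and 11.9 and 11.9 CPM in 6WP. Its log2 fold change was -1.90 ± 0.17 for AM against WT (edgeR adjusted p = 0.00196) and 1.34 ± 0.17 for 6WP against AM (edgeR adjusted p = 0.00397). PTPRN2, a granule membrane protein, was higher in 6WP than in AM (0.78 ± 0.21, edgeR adjusted p = 0.0349, and 0.48 without 6WP replicate 2), HID1 was lower (-0.59 ± 0.16, edgeR adjusted p = 0.0334), and the sorting receptor SORL1 was lower in AM than in WT (-1.15 ± 0.18, edgeR adjusted p = 0.00768). Without WT replicate 1 or 2, 0 of the 2 calls in 6WP against WT, 1 of the 4 in 6WP against AM and 1 of the 2 in AM against WT remained. Without AM replicate 1 these counts were 0, 1 and 1, and without AM replicate 2 they were 0, 0 and 1.

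The machinery of regulated exocytosis was the largest list, with 27 of 34 genes tested. In 6WP against WT 5 passed, or 18.5% beside 3.00% of all tested genes. CPLX2, a complexin that clamps and triggers vesicle fusion, had the largest rise, from 14.0 and 15.8 CPM in WT and 10.6 and 11.4 CPM in AM to 41.4 and 63.6 CPM in 6WP. Its log2 fold change was 1.82 ± 0.21 against WT (edgeR adjusted p = 0.00691) and 2.25 ± 0.21 against AM (edgeR adjusted p = 0.00202). STX1A, the plasma membrane syntaxin of the fusion complex, had 12.5 and 14.1 CPM in WT and 24.8 and 25.0 CPM in 6WP (0.90 ± 0.13, edgeR adjusted p = 0.0174). SYT4, a synaptotagmin of dense core granules, was the most abundant gene of the list at 1014 and 931 CPM in WT and 1400.5 and 1656 CPM in 6WP (0.65 ± 0.13, edgeR adjusted p = 0.0395). These 3 genes also passed against AM, as did SNAP25 (1.02 ± 0.29, edgeR adjusted p = 0.0420). These 4 calls were 14.8% of the 27 tested, below the 21.3% of all tested genes called. SNAP25 was at 0.59 without 6WP replicate 2, and its call was lost there, with limma-voom and when only the 2 groups were fitted. SYT5 rose in 6WP (1.30 ± 0.22, edgeR adjusted p = 0.0283) and in AM (1.02 ± 0.23, edgeR adjusted p = 0.0219) against WT. RAB27B, a small GTPase that docks granules, fell in both, by 1.01 ± 0.16 in 6WP (edgeR adjusted p = 0.0219) and by 0.87 ± 0.16 in AM (edgeR adjusted p = 0.0121). When only the 2 groups were fitted, the calls of STX1A, SYT4, SYT5 and RAB27B in 6WP against WT were lost. Calls of the other lists lost in that fit are named in the closing section.

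In AM against WT, 11 genes of the exocytosis list passed, 3 higher and 8 lower, or 40.7% beside 17.7% of all tested genes. Those lower included RAB27A, RAB27B, VAMP2, SYT1, SYT9, SYT11 and SYTL4, with VAMP2, a vesicle protein of the fusion complex, at 83.8 and 88.6 CPM in WT and 59.4 and 59.4 CPM in AM (-0.54 ± 0.11, edgeR adjusted p = 0.0190). VAMP2 shares 403 exonic bases with another annotated gene on the same strand. SYT1, SYT9 and SYT11 were all under 1.2 CPM. Those higher were SYT5, the vesicle glycoprotein SV2A (0.61 ± 0.10, edgeR adjusted p = 0.00920) and the priming factor UNC13A (0.63 ± 0.14, edgeR adjusted p = 0.0230), and UNC13B at 201 to 242 CPM did not pass in any comparison. None of the 5 calls in 6WP against WT and none of the 11 in AM against WT remained without WT replicate 1 or without WT replicate 2, and 1 of the 4 in 6WP against AM did. Without AM replicate 1 or 2 the counts that remained were 1, 0 and 1.

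Other peptide hormones were mostly silent. Of 26 listed, 9 were tested, 13 had at most 3 counts in every library, and GRP, SST, GAST and PENK had none. Among the 9, the share that passed was 22.2% in 6WP against WT and 33.3% in each comparison with AM. Over all tested genes it was 3.00% in 6WP against WT, 21.3% in 6WP against AM and 17.7% in AM against WT. ADM2 (intermedin), a member of the calcitonin peptide family, rose from 58.1 and 71.3 CPM in WT to 149 and 149.8 CPM in 6WP, by 1.21 ± 0.12 on the log2 scale (edgeR adjusted p = 0.00528), and by 1.00 ± 0.12 against AM (edgeR adjusted p = 0.00357). Unlike CALCA and CALCB, its 6WP replicates were nearly equal. GCG, the glucagon precursor, had 12.5 and 12.0 CPM in WT, 27.8 and 22.8 CPM in AM and 31.9 and 31.6 CPM in 6WP, and passed in 6WP (1.37 ± 0.14, edgeR adjusted p = 0.00528) and in AM (1.04 ± 0.14, edgeR adjusted p = 0.00590) against WT. GAL, which encodes galanin, was high in AM at 48.4 and 44.1 CPM and at 26.3 and 16.8 CPM in 6WP, near the 20.3 and 20.1 CPM of WT. BDNF was higher in 6WP than in AM (1.79 ± 0.40, edgeR adjusted p = 0.0199), and UCN, urocortin, higher in AM than in WT (1.69 ± 0.43, edgeR adjusted p = 0.0324) at under 1.5 CPM. Neither call in 6WP against WT remained without either WT library. The 3 calls in 6WP against AM were lost without either AM library, and the 3 in AM against WT were lost without any 1 WT or AM library.

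The receptors for the calcitonin family had 4 of 6 members tested. Of these 4, the share that passed was 0% in 6WP against WT, 50.0% in 6WP against AM and 0% in AM against WT. Over all tested genes it was 3.00%, 21.3% and 17.7%. None passed in 6WP against WT with edgeR, where none had an unadjusted p under 0.05, nor with DESeq2, limma-voom or edgeR's likelihood ratio test. RAMP1, the partner protein that makes the receptor for calcitonin gene-related peptide, had 195 and 238 CPM in WT, 157 and 192 CPM in AM and 240.1 and 288 CPM in 6WP, and was higher in 6WP than in AM (0.60 ± 0.15, edgeR adjusted p = 0.0303). CALCRL, the receptor itself, was low, at 1.21 and 1.06 CPM in WT, 0.474 and 0.353 CPM in AM and 1.27 and 2.96 CPM in 6WP, and also passed against AM (2.37 ± 0.49, edgeR adjusted p = 0.0149). RAMP2 (1.03 to 2.95 CPM) and CRCP (40.6 to 48.7 CPM) did not pass, and the calcitonin receptor CALCR had at most 2 counts. Without either AM library 0 of these 2 calls remained, and without either WT library 1 did.

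Of 25 neuronal and neuroendocrine surface and cytosolic markers, 11 were tested, and NCAM1 (CD56), a defining marker, had at most 3 counts in any library. Among the 11, 36.4% passed in 6WP against WT, 45.5% in 6WP against AM and 54.5% in AM against WT. Over all tested genes these shares were 3.00%, 21.3% and 17.7%. In 6WP against WT, DDC, the decarboxylase of the monoamine pathway, rose from 11.2 and 11.0 CPM to 20.4 and 17.9 CPM (0.78 ± 0.15, edgeR adjusted p = 0.0378), and passed against AM as well (1.09 ± 0.15, edgeR adjusted p = 0.00469). SEZ6 (1.07 ± 0.14, edgeR adjusted p = 0.0122) and the stathmin STMN3 (1.05 ± 0.14, edgeR adjusted p = 0.0122) rose in 6WP against WT, and both rose in AM too, by 1.41 ± 0.14 (edgeR adjusted p = 0.00258) and 0.83 ± 0.14 (edgeR adjusted p = 0.0100). GFRA1, a receptor for glial cell line-derived neurotrophic factor, had 8.93 and 8.73 CPM in WT, 0.646 and 0.854 CPM in AM and 3.15 and 3.59 CPM in 6WP, and passed in all 3 comparisons. TUBB3, neuronal tubulin, was highest in AM, at 159 and 208 CPM, beside 93.7 and 109.9 CPM in WT and 98.6 and 89.7 CPM in 6WP (-0.96 ± 0.15 for 6WP against AM, edgeR adjusted p = 0.00704). ELAVL3 and SCGN were also higher in AM than in WT (edgeR adjusted p = 0.0163 and 0.0243), with ELAVL3 at 0 to 0.138 CPM in WT and 0.775 and 1.18 CPM in AM. TUBB3, SCGN and ELAVL3 each share exonic bases with another annotated gene on the same strand (1584, 896 and 256 bases). CHRNB2, a nicotinic receptor subunit, was higher in 6WP than in AM (0.70 ± 0.14, edgeR adjusted p = 0.0141). None of the 4 calls in 6WP against WT remained without either WT library and 2 did without either AM library. Of the 5 calls in 6WP against AM, 2 and 1 remained without AM replicate 1 and 2, and of the 6 in AM against WT, 1 and 2 remained without WT replicate 1 and 2 and 2 without either AM library.

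Relatives of the 10 genes had values of their own. Of the 9 tested, 11.1% passed in 6WP against WT, 44.4% in 6WP against AM and 44.4% in AM against WT. Over all tested genes these shares were 3.00%, 21.3% and 17.7%. ENO1, the ubiquitous enolase, was far more abundant than ENO2 in counts, at 1233 and 1159 CPM in WT, 1718 and 1909 CPM in AM and 1219.7 and 1127 CPM in 6WP. It had the same order of groups as ENO2, and passed in AM against WT (0.60 ± 0.12, edgeR adjusted p = 0.0146) and in 6WP against AM (-0.63 ± 0.12, edgeR adjusted p = 0.0112). SYPL1, a synaptophysin-like protein of other tissues, fell in 6WP against WT (-0.62 ± 0.12, edgeR adjusted p = 0.0413), with 147 and 132 CPM in WT and 98.4 and 82.7 CPM in 6WP, whereas SYP was higher. APP, the amyloid precursor protein, was higher in 6WP than in AM (0.78 ± 0.15, edgeR adjusted p = 0.0119, and 0.51 without 6WP replicate 2), where APLP1 was at -0.38, and APLP2 at 368 to 518 CPM did not pass in any comparison. The synaptogyrins SYNGR2 and SYNGR3 and SYPL2 were higher in AM than in WT, by 0.56 ± 0.10, 0.61 ± 0.14 and 0.92 ± 0.21 (edgeR adjusted p = 0.0124, 0.0254 and 0.0255). None of the 4 calls in AM against WT remained without any 1 WT or AM library. The single call in 6WP against WT was lost without any 1 of those libraries, and of the 4 in 6WP against AM, 2 remained without either WT library and 0 without either AM library.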

How the data were processed

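RNA of 22Rv1 cells had been sequenced as 100 bp single end stranded libraries. The authors deposited raw read counts per gene symbol. The submitters' processing notes name hg38, STAR 2.5.3a, StringTie 1.3.3, featureCounts 1.5.3 and edgeR 3.22.3, with no roles. The annotation and strand setting were not given in the sources used here.

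The 10 genes and all gene lists were chosen with earlier results of these data known. Counts of all 6 libraries were filtered with filterByExpr (at least 10 counts) and fitted with edgeR 4.0.16 (R 4.3.3), using TMM normalization and the two-sided quasi-likelihood test without covariates. P-values were adjusted by Benjamini-Hochberg over 14672 genes at a threshold of 0.05. Standard errors are the fold change divided by the root of F. No p-value is given for the 10 genes. A permutation of 2 against 2 libraries cannot go below p = 0.333. P-values rest on the spread between libraries labelled as biological replicates, pooled over WT, AM and 6WP. The 6WP replicates stood further apart, so p-values may be too small in comparisons with 6WP and too large in AM against WT. When only the 2 groups compared were fitted, all tested genes called fell from 440 to 96 in 6WP against WT. They fell from 3131 to 1309 in 6WP against AM and rose from 2593 to 6620 in AM against WT.

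Named genes were all 10, every called gene and the 3 most abundant of each further list, and the 5 genes nearest to CHGA. Some genes of the lists are counted but not reported here by name. Positions, exon lengths and overlaps came from GENCODE on GRCh38 and promoters from RefSeq. In simulated data of 14496 genes for 6WP against WT, 82 of 100 genes changed 2-fold and 95 of 100 changed 4-fold were recovered, with 11 other calls. The simulation gave every gene and group the same spread (common dispersion 0.0173), whereas the real 6WP replicates stood further apart than the others. These rates therefore do not apply to genes with wide gaps between the 6WP replicates, such as CALCA. Alternatives with DESeq2 1.42.0, limma 3.58.1, other normalizations and filters, a replicate block, the 2 groups alone and each library left out are given in the closing section.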

Additional observations from a re-analysis of the deposited data

How the results depend on the processing

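No called value changed its direction under any alternative. The counts moved with the tool and the libraries, as did those over all tested genes. Of the 10 genes, those called in 6WP against WT numbered 3, but 8 with edgeR's likelihood ratio test, 7 with DESeq2 and 7 without the filter. They numbered 2 with limma-voom, where CHGA was lost, and 0 when only the 2 groups were fitted (edgeR, 8 with an unadjusted p under 0.05). All tested genes called went from 440 to 1492, 1124, 894, 369 and 96 in these fits. In 6WP against AM the members called numbered 3, but 1, VGF, with limma-voom and with only the 2 groups (3154 and 1309 of all genes, from 3131). In AM against WT the members called numbered 2, but 6 with only the 2 groups (6620 of all genes, from 2593). Of the further lists, the 14 genes called in 6WP against WT became 27 with the likelihood ratio test and 5 with only the 2 groups. With only the 2 groups, the 26 in 6WP against AM became 14 and the 30 in AM against WT became 54. The 5 left in 6WP against WT were ADM2, CPLX2, GCG, SEZ6 and STMN3. The 14 left in 6WP against AM were ADM2, APP, BDNF, CALCRL, CPLX2, DDC, ELAVL3, ENO1, GAL, GFRA1, NKX2-1, PAM, SRRM4 and TUBB3. All other calls of these 2 comparisons were lost. DDC and SYT4 in 6WP against WT were also lost with the replicate block, and HID1 in 6WP against AM with upper quartile normalization. SYT11 in AM against WT was lost with DESeq2, with the replicate block and without the filter.

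Leaving out 1 library moved the members called between 0 and 8 in 6WP against WT, 0 and 6 in 6WP against AM and 0 and 6 in AM against WT, and the further genes between 0 and 40, 2 and 39, and 2 and 54. Over all tested genes the same fits called 0 to 3870, 116 to 6807 and 67 to 6654. Replicate numbers did not pair the libraries (correlations of deviations 0.0395, 0.0873 and -0.0206), and with the replicate block 4, 3 and 2 members and 13, 30 and 34 further genes were called in the 3 comparisons in the order just given.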
